A study of Mus musculus with 48 samples.

Results

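Expression of the genes that copy DNA and supply its nucleotides was followed in NIH3T3 cells, an established line of mouse fibroblasts, from hour 20 to hour 67 after a forskolin shock. The group was set by gene symbol and held 47 genes: the proteins that license replication origins, the Mcm2 to Mcm7 helicase ring, the factors that activate the helicase and travel with the fork, the replicative polymerases and primase, the sliding clamp and its loader, the single-strand binding complex, Fen1 and Lig1, the enzymes of nucleotide supply, and Chaf1a, Chaf1b and Uhrf1. A probe set with a single gene symbol was found for 46 of the 47, Chaf1a being the exception, out of 18193 genes with such a probe set in the whole series. Where a gene had several, the brightest was taken, so the 46 genes stand for 46 of 45037 probe sets tested.

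All samples belonged to a single group. Unmodified NIH3T3 cells were grown to confluence in serum-containing medium and synchronized with forskolin, which raises cyclic AMP and resets the clocks of cultured cells, and RNA was taken every hour. Each of the 48 hours was measured on 1 Affymetrix array, so no hour had a replicate and there was no unstimulated or proliferating culture to compare with. Changes were therefore read over time, with 12 neighbouring arrays per window and all 48 arrays in each fit, and p-values measure the scatter between arrays of a single time course. In RNA from a whole dish, fewer cells in S phase and less RNA per cell cannot be told apart.

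Replication begins in G1, when the origin recognition complex, Cdc6 and Cdt1 load the Mcm2 to Mcm7 ring onto DNA, a step known as licensing. At the onset of S phase the kinase Cdc7 with its partner Dbf4, together with Mcm10, Cdc45 and the GINS complex, turns the loaded ring into a moving helicase, behind which primase and the polymerases alpha, delta and epsilon lay down new strands with the clamp Pcna. Many of these genes are classical targets of the E2F transcription factors, and their mRNAs are low in resting cells and high in cells about to enter S phase. Fibroblasts that reach confluence are known to leave the cycle by contact inhibition.

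The fibroblast label held: all 8 fibroblast markers (Col1a1, Col1a2, Col3a1, Fn1, Vim, Thy1, Pdgfra and Pdgfrb) lay at mean log2 intensities of 16.40 to 19.01, far above the median of all probe sets at 6.67. None of the markers of epithelium (4), endothelium (3) or muscle (3) was above that median. Of 4 macrophage markers Cd68 alone was above it, at 10.42, and of 3 neuronal markers Snap25 alone, at 15.14. Several arrays stood apart. On 10 arrays (hours 20, 22, 24, 36, 38, 40, 43, 45, 46 and 67) the log2 value of the beta-actin probe set at the 3' end was over 1.4 higher than that at the 5' end, as happens with degraded RNA, and 7 of these arrays fell in the first 24 h. The array of hour 36 departed most for the replication genes, with 22 of the 46 more than 2 residual standard deviations from their own fit, against 26.9% of all probe sets. At hours 52 to 55 the BioB spike-in was 0.90 higher than elsewhere. The beta-actin difference itself fell over the course, at -0.14 log2 per 24 h. Residuals of the 46 genes had a median r of 0.31 with it, with 15 of the r values negative. Fits with it as a covariate, without the 10 arrays and with a term for hours 52 to 55 were run as alternatives. Beyond these the part of the differences in the trends was not tested. For the 46 genes, values without these arrays are given where they change a result. Genes outside the group are given on all arrays only.

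Nearly the whole replication machinery fell. In a linear fit that also allowed a 24 h cosine (limma, Benjamini-Hochberg adjustment over all 45037 probe sets at 0.05), 44 of the 46 genes fell, none rose, and Orc1 and Rfc1 did not pass the test in either direction. With all probe sets of a gene averaged, 45 fell, Orc1 and Rfc1 among them, and Cdc7 did not pass. Among all probe sets 16.2% fell and 14.2% rose. In the brighter part of the array, above the median mean, where all 46 genes lay, 26.4% fell and 26.4% rose. The median slope of the 46 genes was -0.41 log2 per 24 h, with a range of -1.52 to 0.26, whereas the median slope of all probe sets was -0.003. With the 10 arrays of high beta-actin difference left out, 43 genes fell, where 29.0% of all probe sets fell. The median slope of the group was then -0.37.

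The falls were moderate in size. Between the mean of hours 20 to 31 and that of hours 56 to 67 the median gene dropped by 0.64 on the log2 scale, which is a 1.55-fold higher level in the first window. Only Mcm10, Cdc6, Mcm5, Tk1, Pole and Lig1 were at least 2-fold higher in the first window, which makes 6 of 46 genes against 1.27% of all probe sets and 2.38% of the brighter ones. Another 31 genes lay between 1.2-fold and 2-fold, and 9 lay under 1.2-fold. For 32 of the 46 genes every value of the first 12 h was above every value of the last 12 h, a pattern met by 3.85% of all probe sets and 7.34% of the brighter ones. The heat map of hourly values shows the fall running through every role, with the arrays of hours 20, 24 and 36 set off from their neighbours in many rows.

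**Figure D1:**
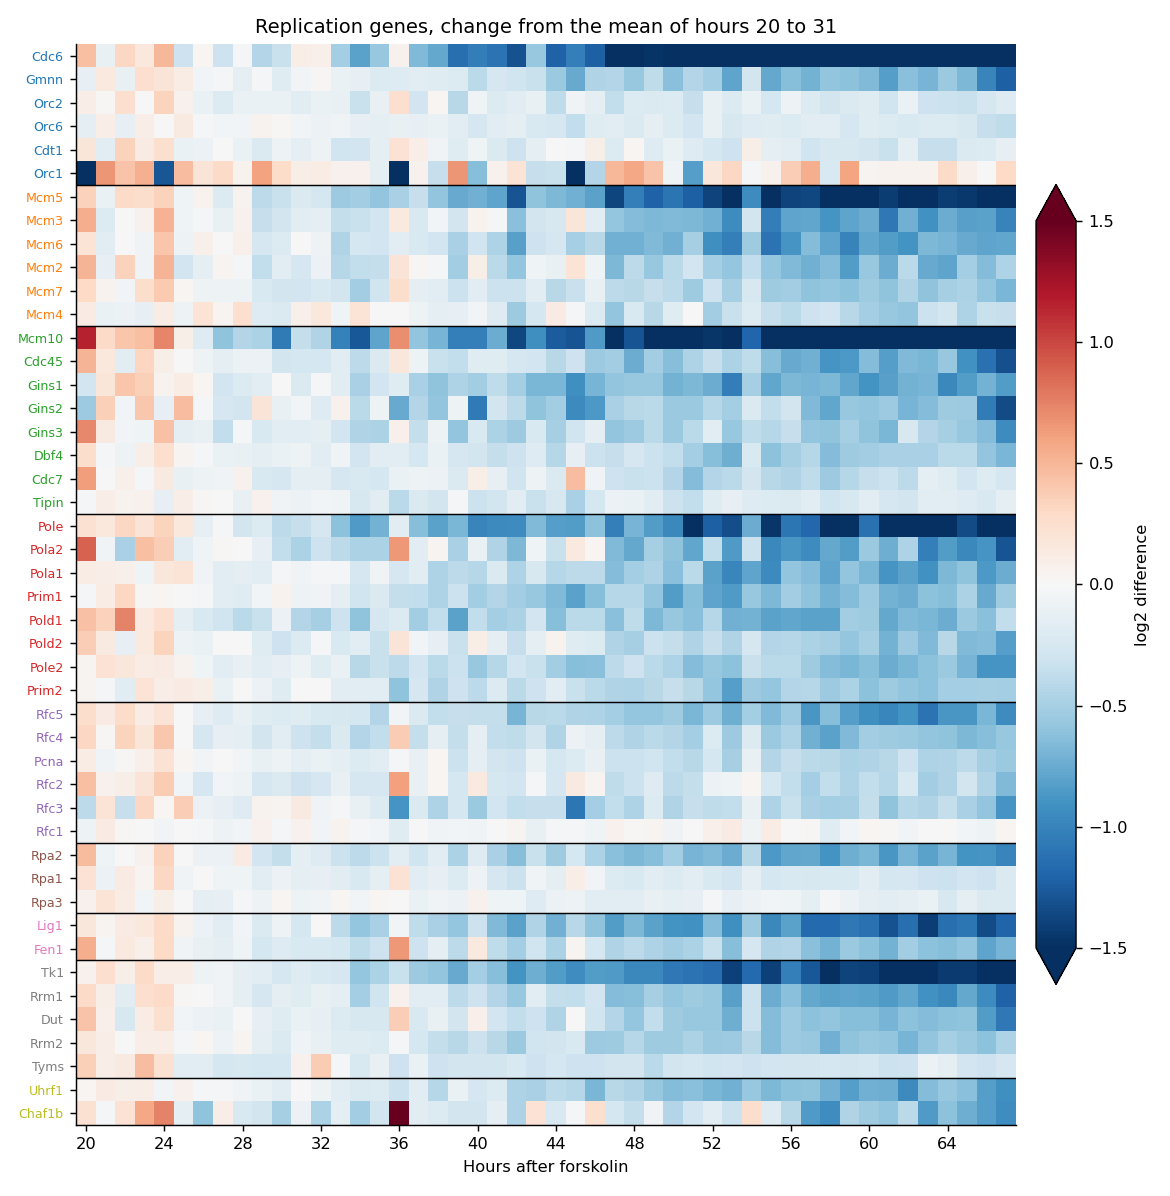
Heat map of the 46 measured replication genes (rows, grouped by role between black lines and ordered by slope within each role) over the 48 hourly arrays (columns, hours after forskolin). Colour is the log2 intensity minus the gene's own mean over hours 20 to 31; shades beyond 1.5 in either direction are cut off. Most rows turn from pale to blue with time, Cdc6, Mcm5, Mcm10, Pole, Lig1 and Tk1 most deeply, while Rfc1 stays pale throughout.

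The promoters of these genes were read for E2F-type letters because such a site is the feature most often tied to this gene class. Windows from RefSeq (GRCm38.p6) were held for 39 of the 47 genes. The 250 bases before the start were searched on both strands for TTTCCCGC, TTTCGCGC, TTTGCCGC or TTTGGCGC. A match was present for 9 genes, namely Cdc6, Gins3, Mcm5, Mcm6, Mcm7, Orc1, Pola1, Rfc3 and Uhrf1, or 23.1% of the 39, and for 2.16% of the 27025 genes in the promoter table (2.72% of its 17491 protein-coding genes). The letters CCAAT of an NF-Y site were present for 24 genes, or 61.5%, against 37.5% of all genes. The letters TTTGAA, the core of the cell cycle homology region found in many mitotic promoters, were present for 6 genes, or 15.4%, against 18.3%. A match is a description of the letters and not a site of binding.

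The last 170 bases before the start are shown for 5 of the 9 genes, 5' to 3' on the strand of the gene, with the E2F-type letters of either strand in capitals. Cdc6 and Mcm5 had the steepest falls among the 9, Mcm6 and Mcm7 belong to the same ring as Mcm5, and Orc1 was the gene whose probe sets disagreed. In Mcm5, and at the upstream place in Mcm6, a match on each strand overlaps and forms a longer run of capitals.
Cdc6 (chr11:98907981-98908150, plus strand): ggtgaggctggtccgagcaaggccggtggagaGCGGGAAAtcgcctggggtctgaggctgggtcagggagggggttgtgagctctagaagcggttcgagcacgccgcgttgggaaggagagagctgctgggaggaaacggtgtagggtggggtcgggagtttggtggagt
Mcm5 (chr8:75109339-75109508, plus strand): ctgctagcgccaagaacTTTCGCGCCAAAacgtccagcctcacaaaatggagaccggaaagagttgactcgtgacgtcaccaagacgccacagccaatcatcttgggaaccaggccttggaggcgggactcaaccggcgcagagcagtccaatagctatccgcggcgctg
Mcm6 (chr1:128359706-128359875, minus strand): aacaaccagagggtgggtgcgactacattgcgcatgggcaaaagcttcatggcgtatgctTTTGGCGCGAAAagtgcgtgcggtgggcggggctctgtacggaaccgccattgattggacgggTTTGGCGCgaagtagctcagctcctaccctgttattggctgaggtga
Mcm7 (chr5:138171884-138172053, minus strand): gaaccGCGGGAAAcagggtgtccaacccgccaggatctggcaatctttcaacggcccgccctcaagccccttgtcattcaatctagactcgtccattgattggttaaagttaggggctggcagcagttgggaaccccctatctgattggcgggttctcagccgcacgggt
Orc1 (chr4:108579284-108579453, plus strand): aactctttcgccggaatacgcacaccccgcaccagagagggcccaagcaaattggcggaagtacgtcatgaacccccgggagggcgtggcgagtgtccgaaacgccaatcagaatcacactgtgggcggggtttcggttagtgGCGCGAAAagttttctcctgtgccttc
The 9 genes with such letters had a median slope of -0.52 log2 per 24 h on their brightest probe sets, and the 29 measured genes without them -0.41. This is given without a test, and the 9 genes ran from the steepest slope of the whole group, in Cdc6, to the most positive one, in Orc1. Tk1 and Mcm10, with falls of 2.77-fold and 4.32-fold, held no such letters in this window, and Pole had no entry in the table.

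Of the origin licensing genes 5 of 6 fell, with a median slope of -0.15 log2 per 24 h. Cdc6, the loader that recruits the Mcm ring, was the exception in size. Its log2 intensity over hours 20 to 31 was 11.51 at the lowest, 11.96 at the median and 12.45 at the highest, and over hours 56 to 67 it was 9.44, 9.97 and 10.26. Every early value was above every late value, and the level at the end was 4.15-fold lower. The slope was -1.52 ± 0.09 (standard error, 48 arrays; adjusted p = 2.6e-18). Gmnn, which encodes geminin, the inhibitor of Cdt1, had a low, median and high value of 13.50, 13.65 and 13.93 in the first window and of 12.45, 13.02 and 13.13 in the last. Those windows did not overlap either, and the slope was -0.52 ± 0.04 (adjusted p = 4.5e-16). Cdt1 itself, the partner of Cdc6 in loading, fell by only 0.14 log2 per 24 h with overlapping windows, and this call was lost without the 10 arrays of high beta-actin difference, at a slope of -0.07. The licensing factor and its inhibitor thus had slopes of different size, though that difference was not tested.

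The origin recognition complex, which marks the origins, had small slopes on the brightest probe sets apart from Orc1. Orc2 and Orc6 fell by 0.16 and 0.15 log2 per 24 h, and the slope of Orc2 was -0.09 without the arrays of high beta-actin difference. Dimmer probe sets of Orc2 had slopes of -0.47 ± 0.08 and -0.26 ± 0.11 (adjusted p = 4.3e-06 and 0.056 in the limma fit). The size of the fall of Orc2 thus depended on the probe set. Among the subunits outside the group, Orc5 fell by 0.20, whereas Orc3 and Orc4 rose by 0.10 each (adjusted p = 0.00027 for both in the limma fit).

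Orc1 gave opposite pictures on its probe sets. On the brightest, the low, median and high value was 8.34, 10.92 and 11.30 in the first window and 10.41, 10.70 and 11.23 in the last, and the slope of 0.26 ± 0.18 did not pass the test (adjusted p = 0.21). On the other, with nearly the same mean, the values were 10.68, 11.19 and 12.45 in the first window and 7.74, 9.41 and 9.73 in the last, so every early value was above every late value. Its slope was -1.36 ± 0.12 (adjusted p = 3.5e-13), close to that of Cdc6. The lowest 4 values of the brightest probe set came at hours 36, 20, 45 and 24, at 8.19, 8.34, 9.06 and 9.35, and these were the 4 arrays with the largest beta-actin difference, of 1.80 to 2.42. Without the 10 arrays of high difference the slope of the brightest probe set was -0.13. On the other probe set the highest values came at hours 20 and 24, at 12.45 and 11.89. Its slope without the 10 arrays was not examined. The direction of Orc1 therefore depended on the probe set and on those arrays.

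All 6 subunits of the Mcm2 to Mcm7 ring fell, with no overlap between the first and last window in any of them, but by unequal amounts. Mcm5 had a low, median and high value of 14.39, 14.78 and 15.13 in the first window and of 13.09, 13.26 and 13.42 in the last. Its level at the end was 2.84-fold lower, with a slope of -1.01 ± 0.05 (adjusted p = 1.1e-20). Mcm5 was the steepest of the ring. Mcm3 went from 14.53, 14.83 and 15.42 to 13.81, 14.08 and 14.16, with a slope of -0.61 ± 0.06 (adjusted p = 1.4e-12). Mcm6 went from 15.09, 15.34 and 15.76 to 14.34, 14.56 and 14.70, with a slope of -0.56 ± 0.05 (adjusted p = 1.6e-13). These subunits formed the middle of the order, at 1.79-fold and 1.73-fold between the windows.

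Mcm2 went from 14.03, 14.31 and 14.91 to 13.56, 13.75 and 13.9995, with a slope of -0.42 ± 0.06 (adjusted p = 7.2e-08). Mcm7 went from 16.02, 16.24 and 16.70 to 15.61, 15.72 and 15.85, with a slope of -0.36 ± 0.04 (adjusted p = 1.0e-10). Mcm4 went from 16.15, 16.35 and 16.62 to 15.78, 15.99 and 16.10, with a slope of -0.29 ± 0.04 (adjusted p = 6.9e-07). Mcm4 was the flattest at 1.32-fold. It was also the only one of the 44 falling genes whose highest 6 h mean came after the first 6 h, in hours 32 to 37.

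The slopes of the ring were compared pair by pair on the hourly differences of 2 subunits, each by its brightest probe set. P-values came from 100000 permutations of the hours, two-sided, with adjustment over the 15 pairs. They were taken without the 24 h cosine, whereas the slope differences and intervals came from a fit with it. Mcm5 was steeper than each of the other 5, by 0.40 (Mcm3, 95% interval 0.30 to 0.51) to 0.73 (Mcm4, 0.63 to 0.82), at the smallest p such permutations can give (1e-05, adjusted 2.5e-05). In total, 12 of the 15 pairs differed on these probe sets. No difference was found between Mcm3 and Mcm6 (-0.05, interval -0.15 to 0.05, permutation adjusted p = 0.43), Mcm2 and Mcm7 (-0.06, -0.17 to 0.04, adjusted p = 0.25) or Mcm7 and Mcm4 (-0.08, -0.20 to 0.05, adjusted p = 0.16), all neighbours in the order. The second-brightest probe sets of the 6 genes kept the same order: -1.51 for Mcm5, -0.66 for Mcm3, -0.56 for Mcm6, -0.54 for Mcm2, -0.43 for Mcm7 and -0.40 for Mcm4. Mean intensity kept its order as well, from Mcm5 as the dimmest (13.97 and 11.84) to Mcm4 as the brightest (16.18 and 15.65). The repeat therefore cannot separate subunit from brightness, and the part of brightness in the order was not tested. Probe sets of the same gene also differed, with -1.01 and -1.51 for Mcm5. Mcm6 and Mcm2, called different at -0.56 and -0.42 on the brightest, lay at -0.56 and -0.54 on the second-brightest. Pairs of second-brightest probe sets were not tested, so the size of a difference belongs to the probe sets as much as to the subunits. After the trend was removed, hourly residuals of the ring moved together, with a median pairwise r of 0.53 against 0.23 over all pairs of the group. Genes on the same 48 arrays share array effects, so this is only a description.

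The factors that activate the helicase and travel with the fork all fell, 8 of 8, with a median slope of -0.38 log2 per 24 h. Mcm10, needed to start unwinding, had the largest fold of the whole group: its low, median and high value was 9.08, 10.09 and 11.29 in the first window and 7.70, 8.05 and 8.48 in the last. The windows did not overlap, the level at the end was 4.32-fold lower and the slope was -1.45 ± 0.10 (adjusted p = 1.3e-16), with -1.43 on its second probe set. Cdc45, which joins the ring in the active helicase, went from 12.27, 12.46 and 13.05 to 11.23, 11.75 and 11.97, without overlap, at a slope of -0.57 ± 0.05 (adjusted p = 1.2e-14). The GINS subunits Gins1, Gins2 and Gins3 had slopes of -0.52, -0.40 and -0.37, and without the arrays of high beta-actin difference that of Gins3 was -0.22. The kinase subunits Dbf4 and Cdc7 had slopes of -0.36 and -0.25. Tipin, of the fork protection complex, had the shallowest called slope of the group at -0.11.

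All 8 genes of polymerases and primase fell as well, at a median slope of -0.43. Pole, the catalytic subunit of the leading strand polymerase epsilon, had a low, median and high value of 12.44, 12.89 and 13.16 in the first window and of 11.01, 11.32 and 11.74 in the last. It was 2.76-fold lower at the end with no overlap, and its slope was -0.91 ± 0.06 (adjusted p = 2.8e-18). Pola2, the second subunit of polymerase alpha, went from 12.56, 12.99 and 13.93 to 11.75, 12.19 and 12.59, and the windows overlapped. Its slope was -0.61 ± 0.08 (adjusted p = 3.6e-08). Pola1, the catalytic subunit of alpha, fell by 0.54, the primase subunits Prim1 and Prim2 by 0.45 and 0.34, and Pold1, Pold2 and Pole2 by 0.42, 0.41 and 0.41. Without hours 20 to 25 the slope of Pold1 was -0.25.

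Among the small subunits outside the group the picture was mixed. Pold3 and Pole4 fell by 0.33 and 0.30 log2 per 24 h, and Pole3, at a slope of -0.08, did not pass the test. Pold4 rose by 0.37 ± 0.07 (adjusted p = 3.3e-05 in the limma fit), with a first window of 12.39, 13.36 and 13.69 and a last of 13.37, 13.77 and 13.88. Those windows overlapped.

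The clamp Pcna, which holds the polymerases on DNA, fell by 0.29 ± 0.02 log2 per 24 h (adjusted p = 6.0e-14), a change of 1.35-fold between windows that did not overlap. Of its 5-part loader, replication factor C, the subunits Rfc2 to Rfc5 fell and Rfc1 did not. Rfc5 was steepest, from 12.29, 12.45 and 12.77 in the first window to 11.40, 11.63 and 11.95 in the last, at -0.55 ± 0.03 (adjusted p = 1.8e-19). Rfc4 went from 14.03, 14.28 and 14.74 to 13.53, 13.73 and 13.87, at -0.38 ± 0.05 (adjusted p = 2.9e-09). Neither pair of windows overlapped. Rfc2 and Rfc3 had slopes of -0.29 and -0.28, and that of Rfc2 was -0.16 without the arrays of high beta-actin difference.

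Rfc1, the large subunit, changed by less than its scatter on its brightest probe set, at 15.81, 15.87 and 16.0003 in the first window and 15.70, 15.88 and 15.91 in the last (slope 0.01 ± 0.02, adjusted p = 0.45). Its dimmer probe sets gave slopes of -0.12 (adjusted p = 0.060) and -0.24 (adjusted p = 0.0013). Of the 3 probe sets of Rfc1, 1 thus fell by the limma test.

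In the single-strand binding complex RPA, which coats unwound DNA, the slopes of the subunits differed in size on their brightest probe sets. Rpa2, the regulatory subunit phosphorylated during S phase, went from 12.72, 13.04 and 13.55 to 12.08, 12.28 and 12.39 without overlap, at a slope of -0.55 ± 0.04 (adjusted p = 2.5e-16). Its second probe set, at -0.25 ± 0.14, did not pass the test. Rpa1, the large DNA-binding subunit, went from 16.45, 16.56 and 16.93 to 16.30, 16.38 and 16.45, at -0.16 ± 0.03 (adjusted p = 5.5e-06) and at -0.11 without the arrays of high beta-actin difference. The second probe set of Rpa1 had a slope of -0.26 ± 0.04 (adjusted p = 8.0e-08 in the limma fit), much like that of Rpa2. The difference between the subunits was not tested. Rpa3 fell by 0.12, with overlapping windows.

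Fen1 and Lig1, which trim the flap of each lagging strand fragment and seal the nick, both fell without overlap. Lig1 went from 13.29, 13.55 and 13.83 to 12.14, 12.39 and 12.74, which is 2.24-fold, at a slope of -0.74 ± 0.04 (adjusted p = 6.0e-20). Fen1 went from 16.21, 16.42 and 17.03 to 15.69, 15.86 and 16.04, which is 1.54-fold, at -0.44 ± 0.05 (adjusted p = 4.7e-09).

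The nucleotide supply genes all fell, 5 of 5, at a median slope of -0.51. Tk1, the thymidine kinase that salvages thymidine in S phase, had the clearest trend of the group. Its low, median and high value was 14.23, 14.48 and 14.76 in the first window and 12.73, 13.01 and 13.45 in the last, a 2.77-fold difference with no overlap, and its slope of -0.99 ± 0.03 had the smallest adjusted p of all 46 genes (2.3e-29). Rrm1, the large subunit of ribonucleotide reductase, went from 13.96, 14.19 and 14.50 to 12.995, 13.41 and 13.58 without overlap, at -0.57 ± 0.04 (adjusted p = 6.6e-17).

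Rrm2, the small subunit that is limiting in S phase, fell by 0.39 and Dut, which removes dUTP, by 0.51. Rrm2b, the small subunit that supplies nucleotides for repair outside S phase and is no member of the group, rose by 0.15 ± 0.02 (adjusted p = 1.8e-07 in the limma fit). It went from 15.26, 15.48 and 15.5643 to 15.5655, 15.69 and 15.78, so the windows all but touched. The share of all probe sets with every late value above every early value was not counted. Tyms, the enzyme that makes thymidylate, fell by 0.21, but its probe set was dim for this group (mean 8.98), and its call was lost without hours 20 to 25.

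Of the genes that follow the fork, Uhrf1, which guides the copying of DNA methylation, went from 16.27, 16.43 and 16.56 to 15.48, 15.71 and 15.87 without overlap, at a slope of -0.52 ± 0.03 (adjusted p = 1.0e-20). Chaf1b, a subunit of the histone chaperone that loads new nucleosomes, went from 10.40, 10.95 and 11.76 to 10.08, 10.34 and 10.61 with overlap, at -0.41 ± 0.11 (adjusted p = 0.0021). Without the arrays of high beta-actin difference the slope of Chaf1b was -0.23. The plot of slopes by role shows how far members of a role lay apart: the slopes of origin licensing alone ran from -1.52 to 0.26, while the medians of the 9 roles ran from -0.59 to -0.15.

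**Figure D2:**
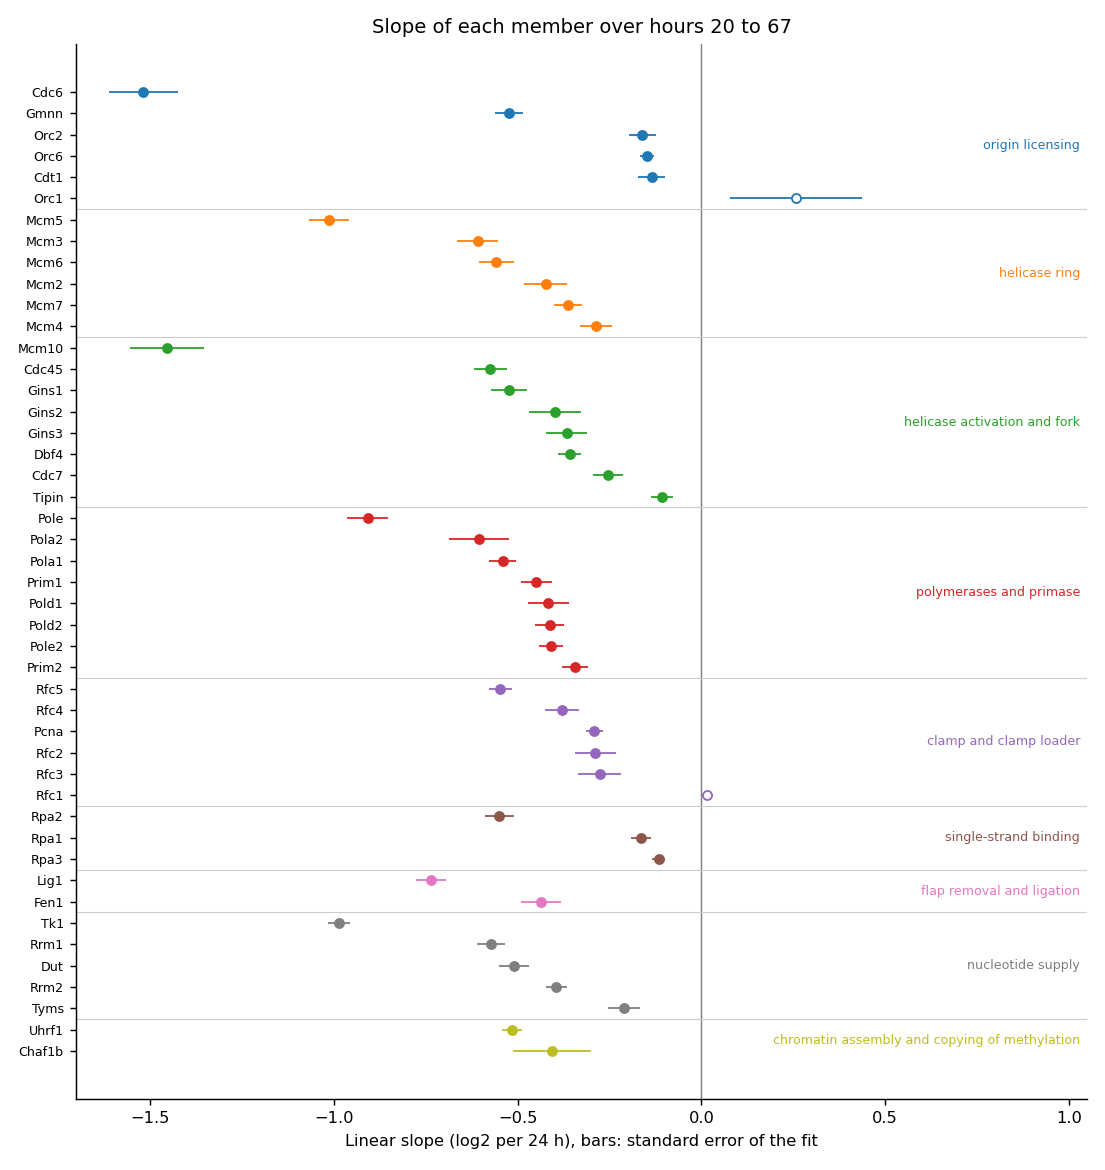
Linear slope of each of the 46 genes (log2 intensity per 24 h, 48 arrays) with the standard error of the fit as bars, grouped and coloured by role. Filled points passed the limma test at an adjusted p of 0.05 and open points, Orc1 and Rfc1, did not; the slopes run from -1.52 (Cdc6) to 0.26 (Orc1).

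**Figure D3:**
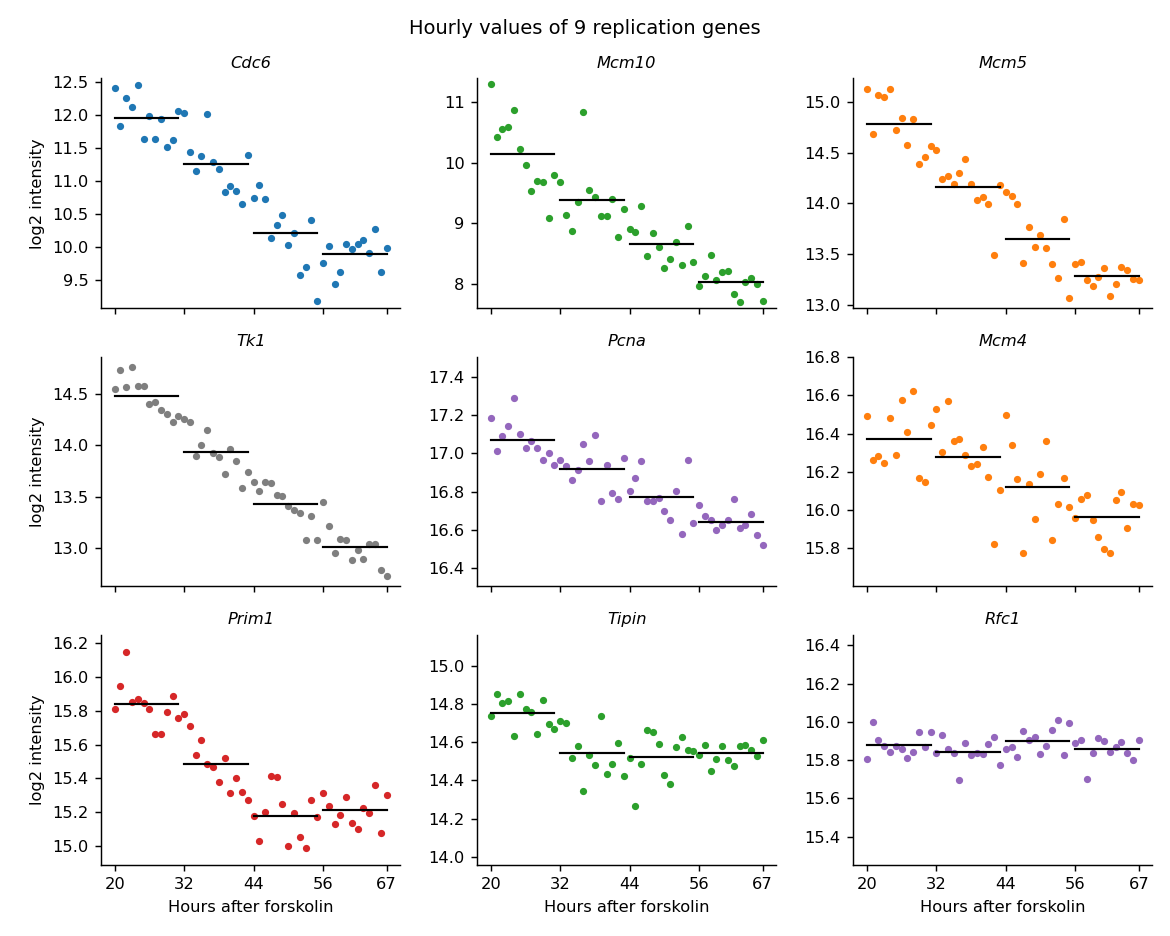
Log2 intensity of 9 genes at each of the 48 hourly arrays (points) with the mean of each 12 h window (black lines, 12 arrays each); the vertical ranges differ between panels. Cdc6, Mcm10, Mcm5 and Tk1 step down through all 4 windows, Pcna and Mcm4 do so over a smaller range, Prim1 and Tipin reach their late level by the third or second window, and the 4 window means of Rfc1 lie close together.

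Set side by side, complexes whose subunits act together did not move by equal amounts. The plot of 4 complexes places members of the group beside subunits from the wider list. Within ribonucleotide reductase, Rrm1 and Rrm2 fell and Rrm2b rose. Within polymerase delta, Pold1, Pold2 and Pold3 fell and Pold4 rose. Within the origin recognition complex, Orc2, Orc5 and Orc6 fell, Orc3 and Orc4 rose, and Orc1 depended on the probe set. Whether the rises of Rrm2b, Pold4, Orc3 and Orc4 hold without the arrays of high beta-actin difference was not examined.

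**Figure D4:**
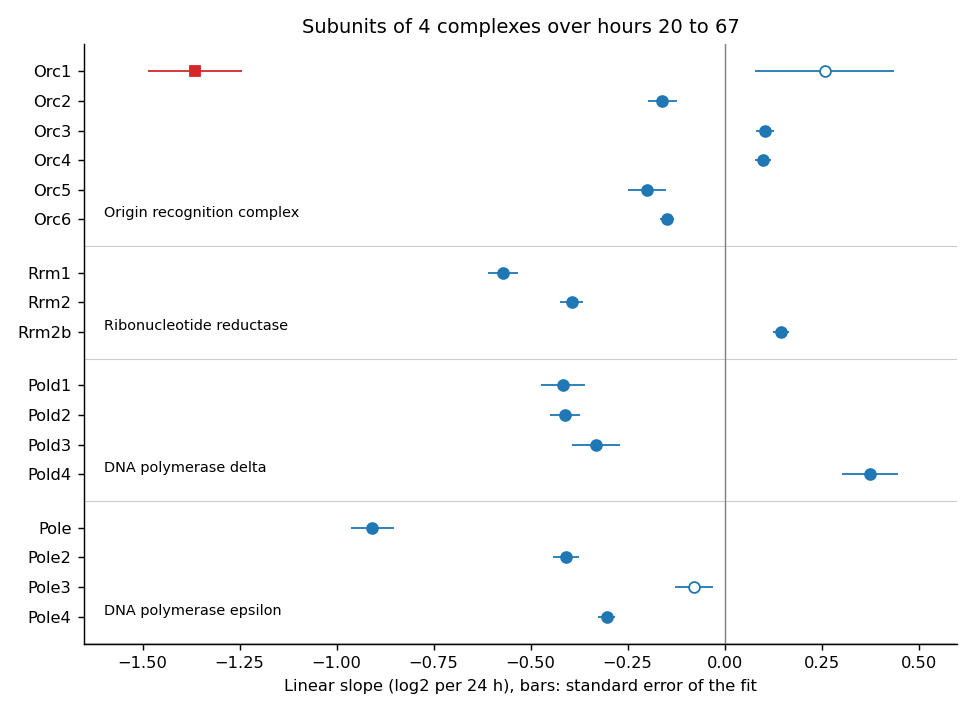
Linear slope (log2 intensity per 24 h) with the standard error of the fit for the subunits of 4 complexes, on the brightest probe set of each gene (blue circles, open where the limma test was not passed). The red square is the other probe set of Orc1, at -1.36 against 0.26 for the brightest; Rrm2b, Pold4, Orc3 and Orc4 lie to the right of 0.

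The course of the decline was read as the share of the fall completed in each window. The median gene had completed 40.2% of its fall from the first to the last 12 h window by hours 32 to 43, and 73.9% by hours 44 to 55. By hours 32 to 43 the share ran from 13.5% (Chaf1b) to 99.4% (Tipin), and it was over 50% for 14 of the 44 falling genes. The share of Chaf1b leaned on hour 36, at 12.62, where its window had a median of 10.77 and a mean of 10.92. The medians were 40.0% and 73.2% for all falling probe sets. Of the 44 falling genes, 43 had their highest 6 h mean in hours 20 to 25, and 28 had their lowest in hours 62 to 67, 11 in hours 56 to 61 and 5 earlier. Genes called for a falling slope tend to this order by selection, and the share among all falling probe sets was not counted. Hours 20, 22 and 24 were also among the arrays of high beta-actin difference. No account can be given of the level before hour 20.

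The median slope was smaller on the second day. In a broken line with its joint at hour 44, the median slope was -0.50 log2 per 24 h before and -0.30 after, against -0.010 and 0.004 for all probe sets. The second slope was the higher one for 36 of the 46 genes, or 78.3%, against 69.3% of all probe sets and 60.3% of all falling ones. The change of slope passed its own test for 6 of the 46 genes, all with the shallower slope on the second day, while 7.43% of all probe sets passed it in either direction and 3.03% with a higher second slope. Among the probe sets brighter than the median, where all 46 genes lay, these shares were 13.8% and 5.13%, so that the 13% of the group was close to the share in either direction at that brightness.

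Those 6 genes came from 3 roles. Prim1, the catalytic primase subunit, had a slope of -0.80 ± 0.06 before hour 44 and of -0.07 ± 0.07 after it, a difference of 0.74 ± 0.11 (adjusted p = 1.0e-05). Pold1, the catalytic subunit of polymerase delta, went from -0.81 to 0.01, a difference of 0.82 ± 0.17 (adjusted p = 0.00077). Gins1 went from -0.85 to -0.17, a difference of 0.68 ± 0.15 (adjusted p = 0.0025). These genes had come to within a short distance of their final level by the third window, with 105%, 89.2% and 91.3% of their fall complete. Tipin (-0.33 to 0.13, adjusted p = 0.00054), Tyms (-0.49 to 0.09, adjusted p = 0.0044) and Rrm2 (-0.58 to -0.20, adjusted p = 0.0046) had smaller slopes.

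Of these calls, that of Pold1 was lost without hours 20 to 25 (adjusted p = 0.074). The call of Tyms was lost without hours 20 to 25 and without the arrays of high beta-actin difference (adjusted p = 0.22 and 0.25). Without those arrays the test was passed by Orc6 (-0.30 to -0.03, adjusted p = 0.0057) and Gins3 (-0.51 to 0.08, adjusted p = 0.017) as well, so the set of called genes depended on them. Cdc6, Mcm10, Mcm5, Tk1 and Pole, the 5 largest falls, had second-day slopes of -0.70 or steeper and did not pass the test of a change of slope on all arrays. Mcm5 passed it with the beta-actin difference as a covariate (adjusted p = 0.042), without hour 21 (0.033) and without hours 20 to 25 (0.023), and Cdc6 without hours 20 to 25 (0.0068). Without hours 20 to 25, however, 57.5% of all probe sets passed, so a pass there says little about a gene. With the covariate 11.4% passed. Chaf1b lay at the other end, with 22.3% of its fall complete by the third window, Cdt1 and Rfc2 following at 41.5% and 41.8%. Their change of slope did not pass the test.

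**Figure D5:**
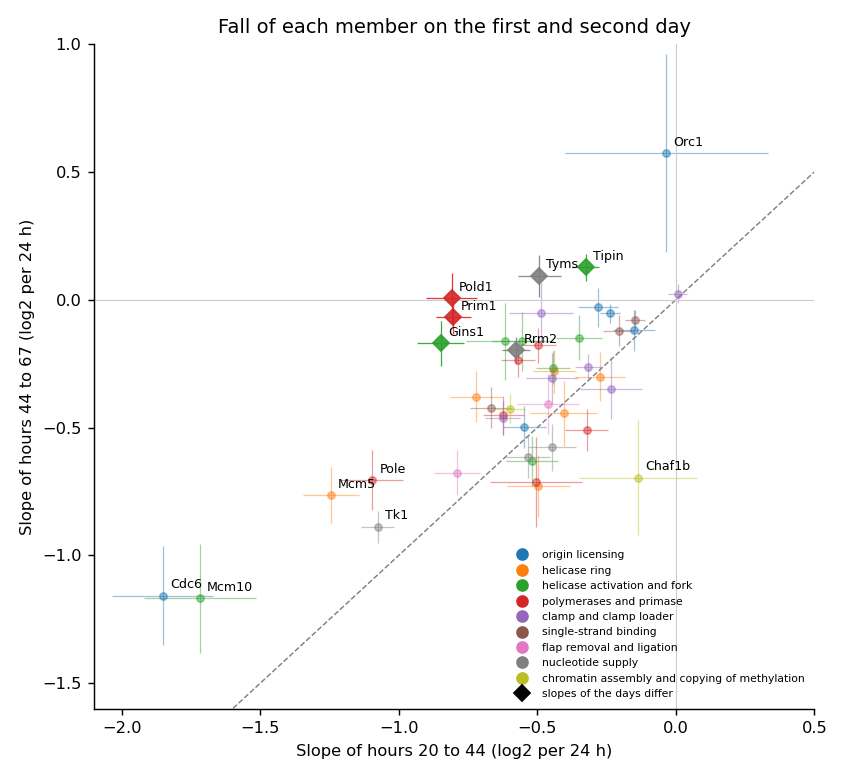
Slope of each of the 46 genes over hours 20 to 44 (horizontal axis) and over hours 44 to 67 (vertical axis), in log2 intensity per 24 h, with standard errors of the fit as bars and colours by role. Points above the dashed line of equal slopes fell more slowly on the second day (36 genes); diamonds mark the 6 genes whose difference passed the test.

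Calls of a 24 h rhythm were rare in the group, as they were over the whole array. The median cosine amplitude was 0.051 in the group and 0.022 over all probe sets, given without a test. The cosine passed the test for Cdc7 alone, with an amplitude of 0.16 on the log2 scale and a peak at hour 42.3 (adjusted p = 0.017), against 0.293% of all probe sets and 0.586% of the brighter ones. That call was lost with the beta-actin difference as a covariate and without the 10 arrays of high difference.

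Other probe sets of the same genes gave the same direction in most cases where they were brighter than the median probe set. The 46 genes had 53 further probe sets of a single symbol. Of the 37 that were brighter than the median probe set 30 fell and none rose, where 26.4% of all such probe sets fell. Of the 16 dimmer ones 6 fell and none rose. Some of those 6 hardly moved, such as Mcm10 (mean 5.48, slope -0.008) and Mcm6 (5.63, -0.010), so the dim probe sets say little about direction. For the 28 genes with a second probe set above the median, 22 fell on it and none rose, at a median slope over all 28 of -0.42 against -0.39 on the brightest. Where both probe sets fell, the dimmer was the steeper for 16 of 21 genes, or 76.2%, and this was so for 66.8% of the 876 such genes in the whole series. The sizes given above therefore belong to a probe set as much as to a gene.

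Further genes of DNA replication, 52 in number and not in the group, moved in the same direction with more exceptions. Of the 51 measured, 38 fell, 5 rose and 8 did not pass the test, with a median slope of -0.28 against -0.41 for the group. Over all probe sets 16.2% fell and 14.2% rose, and over the brighter ones 26.4% fell and 26.4% rose. The largest falls were those of Wdhd1, a partner of polymerase alpha at the fork (-1.51 ± 0.13), Dscc1, of an alternative clamp loader (-1.48 ± 0.11), and Exo1, a repair exonuclease (-1.31 ± 0.08). The largest rises were those of Pold4 and Rrm2b, given above, and of Mcmbp, a binding partner of the Mcm ring (0.25 ± 0.07). The lowest value of Mcmbp in the first window was 13.49, against a median of 14.35. The dependence of these rises on the arrays of high beta-actin difference was not examined. All 23 measured genes of a mitosis list fell, at a median slope of -1.15, with Cenpf (-1.72), Cenpe (-1.55) and Kif23 (-1.51) the steepest. Of the 46 genes, Cdc6 and Mcm10 had a slope steeper than that median on their brightest probe sets, as did the other probe sets of Orc1 and Mcm5.

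Of 18 regulators of S phase entry 10 fell and none rose, where 16.2% of all probe sets fell and 14.2% rose. The steepest were the repressors E2f7 (-1.30) and E2f8 (-1.09) and the S phase cyclin Ccna2 (-0.87), followed by Ccne2 (-0.70). The activators E2f1 and E2f3 did not pass the test, and E2f2 could not be judged, since its probe set lay below the median of all probe sets at a mean of 5.49. E2f1 was at a slope of -0.06 ± 0.04 (adjusted p = 0.22 in the limma fit), with 13.04, 13.37 and 13.79 in the first window and 13.25, 13.36 and 13.44 in the last.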

How the data were processed

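The series comprised 48 Affymetrix mouse genome arrays, 1 per hour. The values deposited by the authors were background-corrected and normalized probe set intensity on a linear scale. The paper's methods name GCRMA for expression and MAS5 for present calls, and the submitters' notes name MAS5 only; no source used here states versions or the scaling constant, so levels were compared only within a probe set. Values were taken to log2 without an offset. The 64 control probe sets were used only for quality, leaving 45037. The platform annotation gave 34945 a single symbol. The number of arrays limits precision.

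A linear term and a 24 h cosine were fitted with limma 3.58.1 in R 4.3.3, and in a second fit a line broken at hour 44. P-values were adjusted by Benjamini-Hochberg over all probe sets, without a filter, at 0.05. Windows held 12 arrays. The fits were tested on simulated data. Named in full were, per role, the 2 largest falls, any rise and Mcm2 to Mcm7, and of other lists the 3 largest changes each way; Ccne2, the E2F activators and further subunits were added after their values were seen, as were the 5 promoters printed. The members, roles and lists were chosen with earlier results of these data known. Alternatives were quantile normalization, median centring, the beta-actin difference as a covariate, its 10 high arrays left out, a term for hours 52 to 55, hours 20 to 25 left out, no cosine, probe sets averaged or above the median only, 6 h means, an offset of 64, an intensity trend and single arrays left out.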

Additional observations from a re-analysis of the deposited data

Results flagged for a closer look

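For 6 genes the slope after hour 44 differed from that before it by a test of the difference itself in the broken-line fit (limma, adjusted over all probe sets). The slope of the second day was higher by 0.677 log2 per 24 h for Gins1, by 0.453 for Tipin, by 0.736 for Prim1, by 0.816 for Pold1, by 0.378 for Rrm2 and by 0.588 for Tyms. Leaving out each of the 48 arrays in turn gave 6 to 8 such genes, and none of the 6 named here was lost. The call of Tyms was lost without hours 20 to 25 (adjusted p = 0.22) and without the arrays of high beta-actin difference (0.25). That of Pold1 was lost without hours 20 to 25 (0.074), and those of Pold1 and Rrm2 with probe sets averaged (0.085 and 0.082). Tyms had a mean of 8.87 and a standard deviation of 0.038 in the third 12 h window, against 9.16 and 0.26 in the first. Whether Tyms had reached the lowest level its probe set can read was not tested.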

How the results depend on the processing

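Leaving out single arrays gave 44 to 44 falling and 0 to 0 rising genes, median slopes of -0.4216 to -0.4001, 6 to 8 changes of slope and 1 to 1 rhythmic genes. Without hours 20 to 25 the median slope was -0.3623 and 11 changes of slope passed, where 57.5% of all probe sets passed, so that this count says nothing about the group. The count was also 11 (5.42% of all probe sets) with the high beta-actin arrays and hours 52 to 55 left out together, an alternative chosen after seeing the data. The rhythmic gene was lost (0 genes) with the beta-actin covariate, without its high arrays, without both sets of arrays, without hours 20 to 25 and with probe sets averaged. On second-brightest probe sets, also chosen later, 22 of 28 genes fell. The linear slope of Orc1 turned to -0.0326 with the beta-actin covariate, -0.1299 without its high arrays, -0.5533 with probe sets averaged and -0.1416 without both sets of arrays. The linear slope of Rfc1 turned to -0.003668 without the high arrays, -0.1156 averaged, -0.001395 with 6 h means and -0.02372 without both. With probe sets averaged 45 genes fell, Orc1 and Rfc1 both passing. Calls of a fall were lost for Cdt1 without the high arrays, without both and without hours 20 to 25, for Orc2, Tipin and Tyms without hours 20 to 25, for Cdc7 averaged, and for Cdc7, Tipin and Tyms with 6 h means. Averaging also moved slopes by over 1.5 times, to -0.33 for Cdc45 and Gins1, -0.10 for Cdc7, -0.20 for Chaf1b and Pola2, -0.21 for Dbf4 and Pole2, -0.96 for Mcm10, -0.30 for Orc2, -0.27 for Pola1, -0.23 for Prim2 and -0.62 for Rrm2, and the changes of slope of Pold1 and Rrm2 were lost. Without hours 20 to 25 the slopes of Orc2, Pold1, Rpa3, Tipin and Tyms were -0.09, -0.25, -0.07, -0.06 and -0.09. Apart from where a setting leaves out arrays or swaps probe sets by construction, the cause was not tested. No paired analysis was possible because the samples form a single group. The limits are 1 array per hour, 1 time course, no control culture and no level before hour 20.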
